A study of Mus musculus with 12 samples.

Results

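The core circadian clock genes examined here were Arntl (also named Bmal1), Clock, Npas2, Nr1d1, Nr1d2, Per1, Per2, Per3, Cry1 and Cry2, found by the gene symbols in the array's annotation. All 10 genes were on the array, with 16 of its 22690 probe sets, a probe set being the group of short probes that reads 1 transcript. Liver mRNA came from 12 female mice of the inbred strain C57BL/6, with 1 Affymetrix array for each liver. There were 4 groups of 3 mice: testosterone after withdrawal, vehicle after withdrawal, testosterone at the end, and vehicle at the end of treatment. Testosterone mice had received 0.9 mg of testosterone in 100 µl of sesame oil under the skin, with 2 injections per week over 3 weeks. Vehicle mice had received sesame oil alone on the same schedule, so every mouse had been injected. The livers were taken directly after treatment or after withdrawal, which lasted 12 weeks per the sample labels and 3 weeks per the series' design text. The hour of day at which livers were taken is not given in the sources used here. Age, the time since the last injection and any difference in the hour of collection between the withdrawal and the end groups cannot be told apart.

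The circadian clock of a cell is a loop in which proteins switch off their own genes. ARNTL pairs with CLOCK, or with the related NPAS2, and switches on genes that carry the E-box sequence, among them the Per, Cry and Nr1d genes. PER and CRY proteins then inhibit that pair, while the nuclear receptors NR1D1 and NR1D2 (REV-ERB alpha and beta) repress Arntl and Npas2. In mouse liver the mRNAs of Arntl, Clock and Npas2 peak near the change from night to day. Nr1d1 mRNA follows during the day, ahead of Nr1d2 and the Per genes, which peak towards the change from day to night, and Cry1 peaks later in the night. Arntl and the Per and Nr1d genes are therefore read against each other to place a liver in the cycle.

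These DNA elements were looked for in the genes' own promoters. RefSeq promoter windows run from 250 bases before to 50 bases after a start site on GRCm38.p6. They were matched by Entrez gene ID for 9 of the 10 genes, with 13 windows, and none was used for Per2. Each was searched on both strands for the E-box CACGTG, for AGGTCA with at least 3 A or T among the 4 bases before it (the form bound by ROR and NR1D receptors), and for the D-box forms TTATGTAA and TTACGTAA (bound by DBP, TEF and NFIL3). The 4 windows that held a match are shown 5′ to 3′ with the matched letters in capitals.
Arntl: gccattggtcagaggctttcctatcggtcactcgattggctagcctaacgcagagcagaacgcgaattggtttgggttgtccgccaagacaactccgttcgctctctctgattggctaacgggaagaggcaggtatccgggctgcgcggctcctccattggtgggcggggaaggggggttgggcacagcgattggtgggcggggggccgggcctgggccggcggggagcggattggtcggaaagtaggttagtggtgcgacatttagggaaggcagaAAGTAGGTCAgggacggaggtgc
Per1: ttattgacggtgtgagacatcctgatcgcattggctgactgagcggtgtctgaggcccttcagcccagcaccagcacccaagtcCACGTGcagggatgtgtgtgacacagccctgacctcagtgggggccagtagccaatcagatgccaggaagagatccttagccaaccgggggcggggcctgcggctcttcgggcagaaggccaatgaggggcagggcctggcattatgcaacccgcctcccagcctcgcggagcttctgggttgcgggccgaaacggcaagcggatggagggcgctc
Per3: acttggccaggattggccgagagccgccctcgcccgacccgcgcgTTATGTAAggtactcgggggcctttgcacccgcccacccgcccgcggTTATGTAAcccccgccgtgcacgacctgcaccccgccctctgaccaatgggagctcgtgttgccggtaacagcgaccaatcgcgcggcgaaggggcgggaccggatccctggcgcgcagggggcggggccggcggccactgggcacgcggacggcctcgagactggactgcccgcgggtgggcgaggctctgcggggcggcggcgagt
Cry1: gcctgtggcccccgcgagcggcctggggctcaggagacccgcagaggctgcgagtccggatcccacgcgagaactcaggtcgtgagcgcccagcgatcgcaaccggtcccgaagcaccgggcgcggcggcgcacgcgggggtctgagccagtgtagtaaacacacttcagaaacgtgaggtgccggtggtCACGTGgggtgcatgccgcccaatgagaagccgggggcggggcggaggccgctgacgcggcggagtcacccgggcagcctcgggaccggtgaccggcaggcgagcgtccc
The Arntl window is chr7:113207261-113207560 on the plus strand, and its match AAGTAGGTCA begins at base 28 of the transcript. The Per1 window is chr11:69098699-69098998 on the plus strand, with CACGTG beginning 166 bases before the start site. The Per3 window is chr4:151044616-151044915 on the minus strand, with TTATGTAA beginning 205 and 158 bases before the start site. The Cry1 window is chr10:85185005-85185304 on the minus strand, with CACGTG beginning 60 bases before the start site. Of 32851 windows of the same length, 7.15% held CACGTG, 4.58% the AGGTCA form, 0.938% TTATGTAA and 0.119% TTACGTAA. CACGTG was found in 2 of the 9 genes. The windows of Clock, Npas2, Nr1d1, Nr1d2 and Cry2 held no match to any of these forms. Nor did the other window of Arntl or of Per1. A match describes letters in a window, and no binding was measured.

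The arrays were similar in overall signal. Values are linear array intensities on a scale where the 2% trimmed mean is about 100, and the median signal lay between 20.03 and 22.44 on the 12 arrays. Mice of the same group correlated at 0.979 to 0.989 on the log2 scale. All 7 measured hepatocyte markers were above the array median on 3 or more arrays, and their summed signal ranged from 26802 to 33211 over all mice, with overlapping ranges. The summed signal of 9 Kupffer cell and macrophage markers was 1831 to 2026 in testosterone mice and 1492 to 2771 in vehicle mice after withdrawal, against 2164 to 2740 in testosterone mice and 3084 to 4789 in vehicle mice at the end. The 2 erythroid markers on the array summed to 252 to 344 in testosterone mice and 60.4 to 113 in vehicle mice after withdrawal, against 258 to 328 in testosterone mice and 61.7 to 108 in vehicle mice at the end. The 6 stellate cell markers summed to 1574 to 1595 in testosterone mice and 1827 to 1973 in vehicle mice after withdrawal, which did not overlap, against 1335 to 1491 in testosterone mice and 1428 to 1697 in vehicle mice at the end. The 6 pancreatic acinar markers on the array, of which 1 exceeded the array median on 3 or more arrays, summed to 331, 831 and 23.2 in testosterone mice after withdrawal and to 15.6 to 70.3 in the other groups. The 3′ over 5′ ratio for the beta-actin control, a sign of RNA integrity, averaged 1.62 ± 0.179 in testosterone and 1.77 ± 0.154 in vehicle mice after withdrawal, against 2.11 ± 0.0769 in testosterone and 1.52 ± 0.108 in vehicle mice at the end (SD, n = 3 each). The part of these measures in the results below was not tested, beyond a fit with the actin ratio as a covariate. That ratio was 2.03 to 2.19 in testosterone end mice and 1.44 to 1.89 in all other mice, without overlap. In comparisons that use testosterone end mice, the covariate fit therefore cannot cleanly separate the ratio from the group. In whole liver, fewer cells of a type and less RNA per cell cannot be told apart.

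Tests were run on log2 signals with limma, over all genes that exceeded the median signal of 3 or more of the 12 arrays, and a gene was called at a Benjamini-Hochberg adjusted p under 0.05. Of 12393 genes, 7217 passed that filter, among them 9 of the 10 clock genes. Npas2 did not, being above the median on 1 array. Arntl passed through its 6 withdrawal arrays, and Per1 and Per3 through their 6 end arrays. Per2 passed through its 6 end arrays as well, with 1 withdrawal array above the median. These genes had to be bright at 1 of the times to be tested at all. Counts over the 9 tested genes between the times are therefore given as a description. The counts without the filter, and the adjusted p-values of these genes without it, follow them.

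The clock genes separated the withdrawal livers from the end livers, in both treatments. Arntl, Clock and Cry1 were higher after withdrawal, and Nr1d2, Per1, Per2, Per3 and Cry2 were lower. In testosterone mice 8 of the 9 tested genes were called, 3 higher and 5 lower after withdrawal, where 10.9% of all tested genes were called, 5.57% higher and 5.31% lower. In vehicle mice 9 of 9 were called, 3 higher and 6 lower, against 17.8% of all tested genes, 11% higher and 6.83% lower. Without the filter, 8 of 10 were called in testosterone mice (3.95% of all 12393 genes) and 7 of 10 in vehicle mice (6.39%). The median log2 change of the 9 genes, which joins opposite directions, was -0.65 in testosterone mice against -0.010 over all genes, and -1.47 in vehicle mice against 0.056. The comparisons in testosterone mice and in vehicle mice share no animals, but they share the estimate of the spread between mice in the fit. With the actin ratio as a covariate, 4 clock genes were called in testosterone mice (110 of 7217 genes in all) and 5 in vehicle mice (232 genes in all): Arntl, Clock, Nr1d2 and Per3 in both, and Per2 in vehicle mice.

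**Figure D1:**
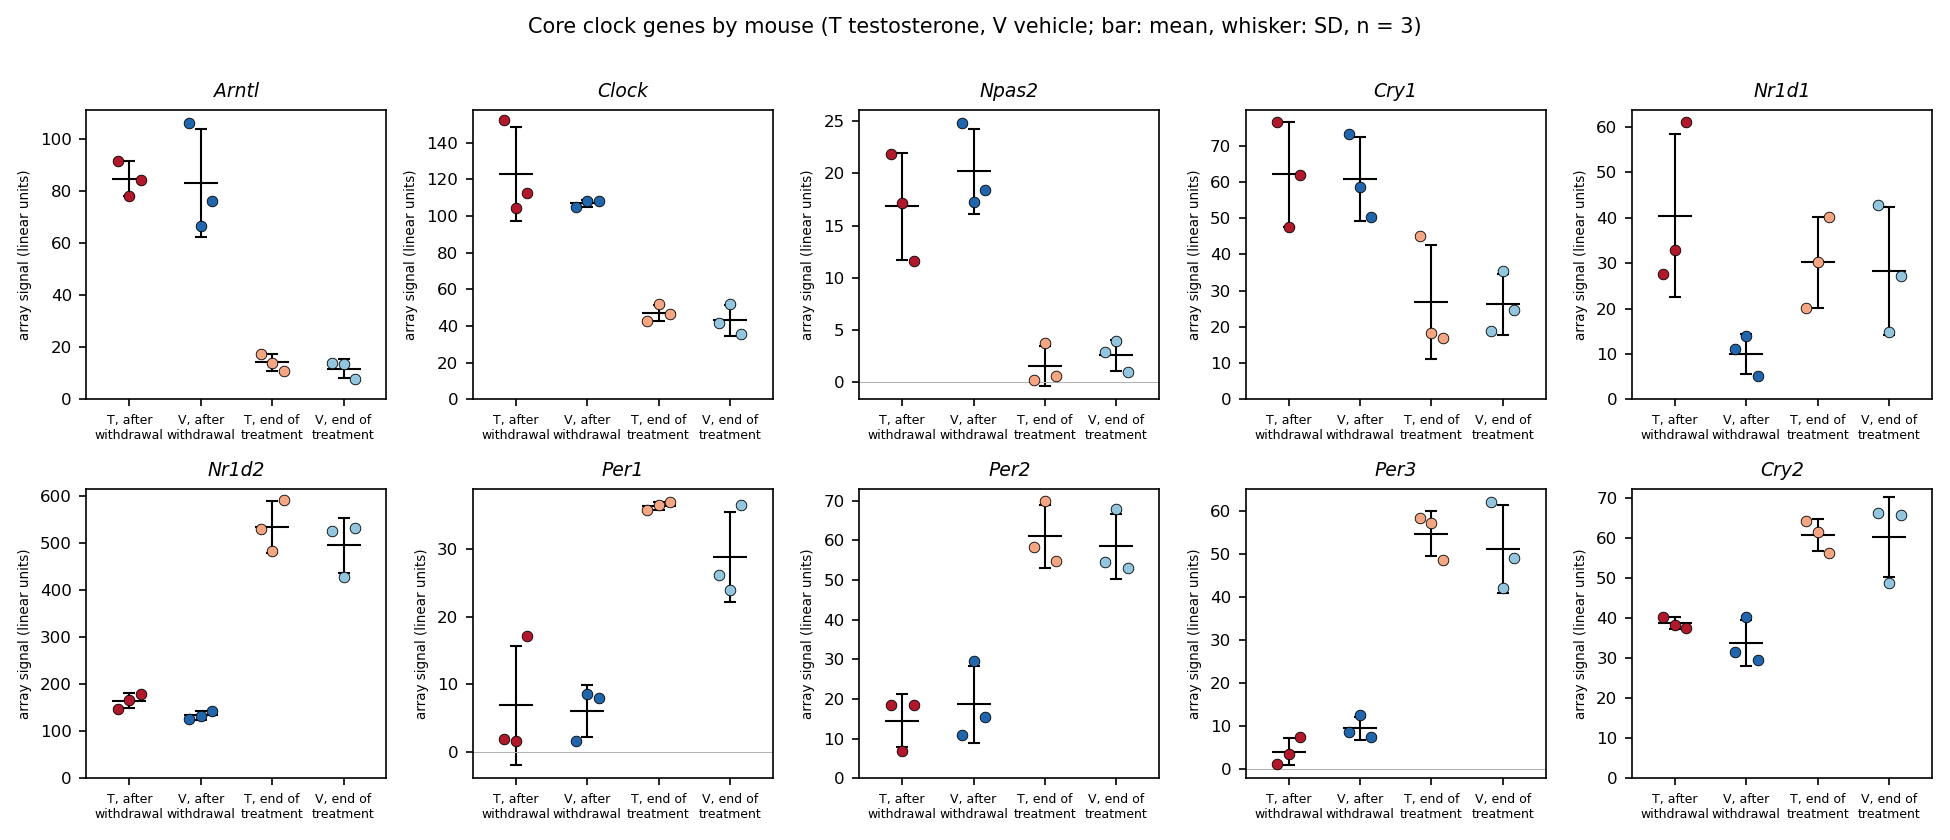
Signal of each clock gene in each of the 12 mice, 1 panel per gene, with array intensity on a linear axis and the groups in the order testosterone withdrawal, vehicle withdrawal, testosterone end, vehicle end; points are mice, bars are group means and whiskers are SDs of 3 mice. The 6 withdrawal mice lie above the 6 end mice for Arntl (66.7 or more against 17.6 or less) and below them for Per3 (12.5 or less against 42.1 or more), while the times overlap for Nr1d1.

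Among the activators, Arntl encodes the obligate partner of CLOCK. Its signal was 91.8, 78.3 and 84.4 in the 3 testosterone mice after withdrawal, against 17.6, 14.1 and 11.0 when treatment ended. In vehicle mice it was 106, 66.7 and 76.4 after withdrawal, against 14.2, 13.6 and 7.82 at the end. Every withdrawal mouse lay above every end mouse. The difference was 6.05-fold in testosterone mice (log2 change 2.60 ± 0.25 SE, limma adjusted p = 1.04e-05) and 7.11-fold in vehicle mice (2.83 ± 0.25, limma adjusted p = 5.36e-06). Without the filter, which Arntl passed through its withdrawal arrays, testosterone mice had limma adjusted p = 0.00227 and vehicle mice limma adjusted p = 0.00167.

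Clock encodes the partner that carries a histone acetyltransferase activity. Its brightest probe set read 152, 104 and 112 in testosterone mice after withdrawal, against 43.0, 51.9 and 46.5 at the end. Vehicle mice had 105, 108 and 108 after withdrawal, against 41.8, 52.1 and 35.6 at the end. Again no withdrawal mouse overlapped an end mouse. Clock rose 2.58-fold in testosterone mice (log2 1.37 ± 0.16, limma adjusted p = 9.00e-05) and 2.51-fold in vehicle mice (1.33 ± 0.16, limma adjusted p = 0.000125). A second Clock probe set gave log2 changes of 1.26 and 1.26 in testosterone and vehicle mice.

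Npas2, which can take the place of Clock, was dim in every liver. Its brighter probe set read 21.8, 17.2 and 11.6 in testosterone mice and 24.8, 17.3 and 18.4 in vehicle mice after withdrawal. At the end of treatment the values were 0.252, 3.72 and 0.614 in testosterone mice and 2.89, 3.91 and 0.981 in vehicle mice, all under the floor of 4.84 that was set for low signals. Measured against that floor, Npas2 was at least 3.37-fold higher after withdrawal in testosterone mice and at least 4.12-fold higher in vehicle mice. In the fit without the filter these changes had limma adjusted p = 0.00437 in testosterone mice and limma adjusted p = 0.00214 in vehicle mice. Its dimmer probe set was under the floor in 2 of 3 testosterone mice after withdrawal and in all 6 end mice, and neither time comparison was called for it.

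Nr1d2 encodes REV-ERB beta, which represses Arntl together with REV-ERB alpha. Its brighter probe set read 147, 166 and 179 in testosterone mice after withdrawal, against 528, 482 and 592 at the end. Vehicle mice had 125, 133 and 143 after withdrawal, against 524, 427 and 531 at the end. The highest withdrawal value was below the lowest end value. Nr1d2 was 3.25-fold lower after withdrawal in testosterone mice (log2 -1.70 ± 0.12, limma adjusted p = 4.42e-07) and 3.68-fold lower in vehicle mice (-1.88 ± 0.12, limma adjusted p = 1.90e-07). These were the 6th and the 3rd smallest p-values of all 7217 genes in their comparisons. The dimmer Nr1d2 probe set was read with every probe set tested by itself and no filter. Its log2 change was -0.92 in testosterone mice, not called (limma adjusted p = 0.107), and -2.32 in vehicle mice, called (limma adjusted p = 0.00416).

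Nr1d1 was the exception among the clock genes. Its signal was 27.5, 32.9 and 61.0 in testosterone mice after withdrawal, against 20.1, 30.3 and 40.2 in testosterone mice at the end. Vehicle mice had 11.0, 13.9 and 5.26 after withdrawal, against 42.9, 14.7 and 27.1 at the end. The times overlapped in testosterone mice and did not in vehicle mice, where the gap between 13.9 and 14.7 was narrow. In testosterone mice the log2 change of 0.39 ± 0.43 was not called (limma adjusted p = 0.617). In vehicle mice Nr1d1 was 2.77-fold lower after withdrawal (log2 -1.47 ± 0.43, limma adjusted p = 0.0298). That call was lost without the filter (limma adjusted p = 0.138), on log2(signal + 16) without a floor (-0.73, limma adjusted p = 0.0518), with the actin ratio as a covariate (-0.76, limma adjusted p = 0.439), in a fit of the vehicle groups alone (limma adjusted p = 0.0600) and when vehicle end mouse 1, vehicle end mouse 3 or vehicle withdrawal mouse 3 was left out, with log2 changes of -1.10, -1.43 and -1.06.

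The Per genes, whose proteins inhibit CLOCK and ARNTL together with the CRY proteins, were all lower after withdrawal. Per3 read 1.25, 3.55 and 7.48 in testosterone mice after withdrawal, against 58.3, 57.2 and 48.6 at the end. In vehicle livers Per3 was at 8.66, 12.5 and 7.36 after withdrawal, against 62.1, 42.1 and 49.1 at the end. Of the withdrawal mice, 2 were under the floor, both given testosterone, so the fold there is a bound. Per3 was at least 9.75-fold lower in testosterone mice (log2 -3.28 ± 0.26, limma adjusted p = 1.62e-06) and 5.44-fold lower in vehicle mice (-2.44 ± 0.26, limma adjusted p = 4.69e-05). Without the filter testosterone mice had limma adjusted p = 0.000658 and vehicle mice limma adjusted p = 0.00199. Of its dimmer probe sets, 1 had a log2 change of -0.79 in testosterone mice, not called, and of -1.47 in vehicle mice, called, and the other was near the floor throughout. The mean over its probe sets gave smaller log2 changes, -1.41 in testosterone mice and -1.45 in vehicle mice.

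Per2 read 18.4, 6.89 and 18.4 in testosterone mice after withdrawal, against 58.4, 69.9 and 54.7 at the end. For vehicle mice the values were 11.0, 29.6 and 15.4 after withdrawal, against 54.5, 68.0 and 53.1 at the end. All withdrawal mice were below all end mice. The decrease was 4.58-fold in testosterone mice (log2 -2.19 ± 0.37, limma adjusted p = 0.00160) and 3.40-fold in vehicle mice (-1.77 ± 0.37, limma adjusted p = 0.00527). In the fit without the filter, the testosterone change had limma adjusted p = 0.0310 and the vehicle change limma adjusted p = 0.0502. The second Per2 probe set was called in neither comparison, with log2 changes of -0.68 in testosterone mice and -1.77 in vehicle mice.

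Per1 read 1.95, 1.68 and 17.1 in testosterone mice after withdrawal, against 35.7, 36.4 and 37.0 at the end. Vehicle mice held 1.59, 8.54 and 7.94 after withdrawal, against 26.2, 23.9 and 36.5 at the end. Testosterone withdrawal mouse 3, at 17.1, was the highest withdrawal value and still under the lowest end value. With 2 testosterone mice and 1 vehicle mouse under the floor, Per1 was at least 4.93-fold lower after withdrawal in testosterone mice (log2 -2.30 ± 0.42, limma adjusted p = 0.00273) and at least 4.11-fold lower in vehicle mice (-2.04 ± 0.42, limma adjusted p = 0.00467). Without the filter testosterone mice had limma adjusted p = 0.0313 and vehicle mice limma adjusted p = 0.0369. Without testosterone withdrawal mouse 3 the log2 change in testosterone mice was -2.91. With the actin ratio as a covariate the Per1 changes were -2.90 in testosterone mice and -1.71 in vehicle mice, neither called.

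The cryptochromes moved in opposite directions. Cry1 read 76.6, 47.5 and 61.9 in testosterone mice after withdrawal, against 45.1, 18.4 and 17.0 at the end. Vehicle values of Cry1 were 73.2, 58.5 and 50.4 after withdrawal, against 18.9, 35.4 and 24.5 at the end. Testosterone end mouse 1, at 45.1, came close to the lowest withdrawal mouse, at 47.5. Cry1 was 2.52-fold higher after withdrawal in testosterone mice (log2 1.33 ± 0.33, limma adjusted p = 0.0172) and 2.36-fold higher in vehicle mice (1.24 ± 0.33, limma adjusted p = 0.0179). The call in testosterone mice was lost without the filter (limma adjusted p = 0.109) and when end mouse 2 or 3 or withdrawal mouse 1 or 3 was left out, at log2 changes of 1.14, 1.08, 1.17 and 1.32. In vehicle mice it was lost without the filter (limma adjusted p = 0.102) and without end mouse 1, withdrawal mouse 1 or withdrawal mouse 2, at 1.02, 1.09 and 1.26.

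Cry2 had the smallest change among the clock genes called in each treatment. Testosterone mice read 40.4, 38.2 and 37.6 after withdrawal, against 64.2, 61.5 and 56.3 at the end. Vehicle mice read 31.5, 40.4 and 29.5 after withdrawal, against 66.2, 48.8 and 65.8 at the end. Withdrawal and end mice did not overlap. The gene was 1.56-fold lower after withdrawal in testosterone mice (log2 -0.65 ± 0.16, limma adjusted p = 0.0174) and 1.78-fold lower in vehicle mice (-0.83 ± 0.16, limma adjusted p = 0.00310). The testosterone call was lost when end mouse 1, end mouse 2, withdrawal mouse 2 or withdrawal mouse 3 was left out, with log2 changes of -0.60, -0.63, -0.64 and -0.62.

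**Figure D2:**
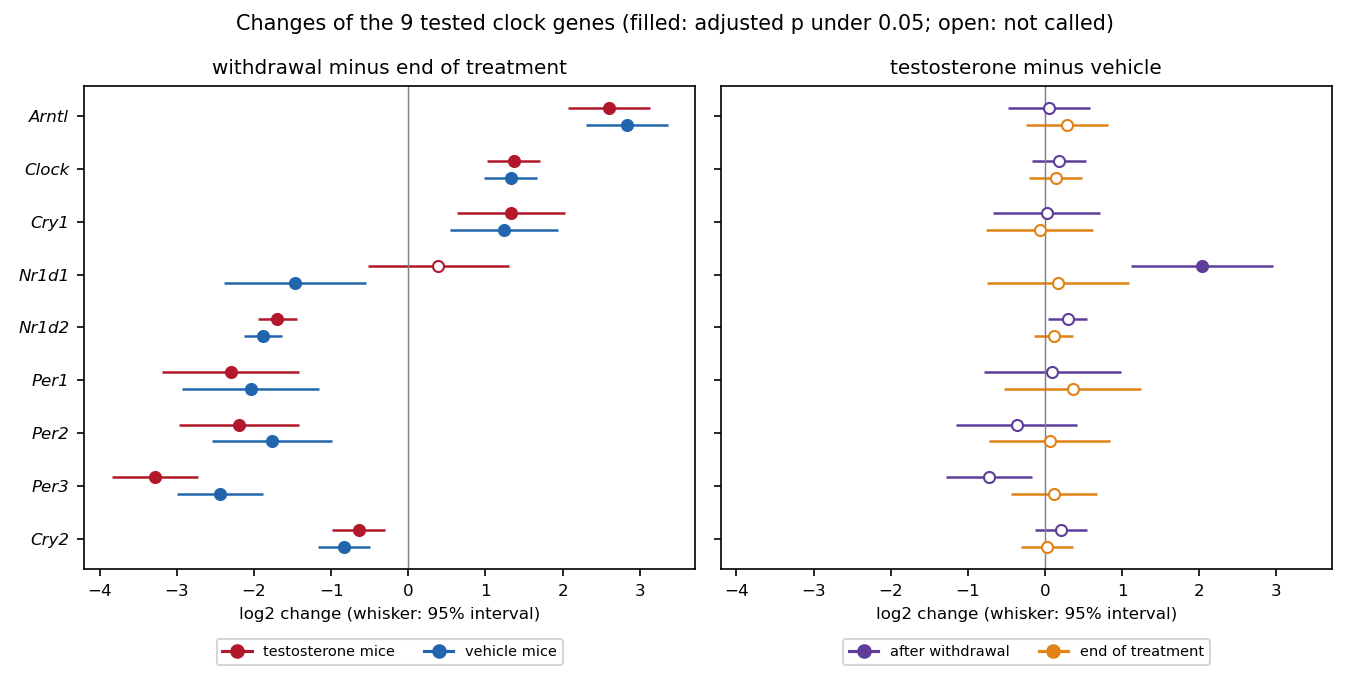
Log2 change of each tested clock gene in each comparison, as points (filled where called) with 95% confidence intervals from the limma fit, against a line at 0. The intervals between the times exclude 0 for Arntl, Clock, Nr1d2, the Per genes and the Cry genes in both treatments, while for testosterone against vehicle they include 0 except after withdrawal for Nr1d1, which was called, and for Nr1d2 (0.045 to 0.55) and Per3 (-1.29 to -0.17), which were not.

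Taking the 12 mice together, all 6 withdrawal mice lay above all 6 end mice for 3 clock genes (Arntl, Clock and Cry1) and below them for 5 (Nr1d2, Per1, Per2, Per3 and Cry2). The same separation held for 5.69% of all tested genes, 255 above and 156 below. Of the 7217 genes, 317 (4.39%) were called between the times in both treatments, 297 of them in the same direction.

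The position of each liver in the cycle was summarised as the mean log2 signal of Arntl and Clock minus that of Nr1d1, Nr1d2, Per1, Per2 and Per3, each gene first centred on its mean over the 12 mice. This balance was 2.29, 2.10 and 1.24 in testosterone mice and 2.42, 1.47 and 2.19 in vehicle mice after withdrawal. At the end of treatment it was -1.72, -1.88 and -2.17 in testosterone mice and -2.02, -1.45 and -2.46 in vehicle mice. All withdrawal livers were thus on the Arntl side and all end livers on the Nr1d and Per side, with no value between -1.45 and 1.24. The group means were 1.88 ± 0.562 for testosterone and 2.02 ± 0.497 for vehicle after withdrawal, and -1.92 ± 0.228 for testosterone and -1.97 ± 0.506 for vehicle at the end (SD, n = 3 each). The mean balance of testosterone and vehicle livers of the same time differed by less than the spread between mice, by -0.15 after withdrawal and by 0.050 at the end. That mean joins Nr1d1, at 2.03 in testosterone against vehicle mice after withdrawal, with Per3, at -0.73. Only the Nr1d1 change was called, and 2 of 3 testosterone mice were under the floor for Per3. Read as Arntl against Nr1d1 alone, the balance differed by -1.98 between testosterone and vehicle mice after withdrawal, and by 2.21 instead of 3.80 between the times in testosterone mice. By the order of peaks known from mouse liver, the withdrawal livers lay nearer than the end livers to the change from night to day. The end livers lay nearer to the change from day to night. Each gene was centred over these 12 mice, so the sides are relative to each other and place neither time at an hour. The balance restates the genes above and adds no separate evidence. The genes give this order only, since the sources used here give no hours to set a scale.

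**Figure D3:**
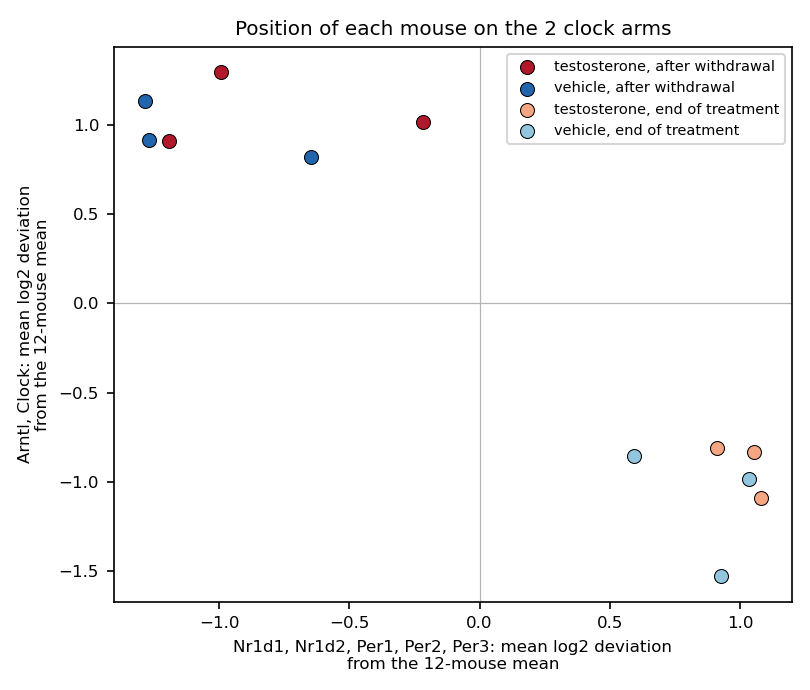
Mean centred log2 signal of Arntl and Clock on the vertical axis against that of Nr1d1, Nr1d2, Per1, Per2 and Per3 on the horizontal axis, 1 point per mouse, marked by group. The 6 withdrawal mice and the 6 end mice form separate corners, with a balance between 1.24 and 2.42 and between -2.46 and -1.45, and testosterone and vehicle mice are mixed within each.

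At the end of 3 weeks of testosterone, no clock gene differed between testosterone and vehicle mice in the limma fit on the brightest probe sets. Of the 9 tested, 0 were called and 0 had an unadjusted p under 0.05, where 17.4% of all tested genes were called and 32% had an unadjusted p under 0.05. The 3 mice of both groups overlapped for all 9 genes, and did not overlap for 35.7% of all genes. The median change of the 9 genes was 0.11 on the log2 scale, against 0.044 over all genes. The 95% interval of the difference ran from -0.24 to 0.82 for Arntl, from -0.20 to 0.49 for Clock and from -0.14 to 0.36 for Nr1d2. It was wider for the dimmer genes, from -0.75 to 1.09 for Nr1d1, from -0.53 to 1.25 for Per1, from -0.72 to 0.84 for Per2, from -0.45 to 0.67 for Per3 and from -0.77 to 0.63 for Cry1. Cry2 had an interval of -0.32 to 0.36.

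Nr1d2 depended on the probe set read. Its dimmer probe set was at 18.3, 16.5 and 27.3 in testosterone mice when treatment ended, against 63.5, 47.1 and 43.1 in vehicle mice. The groups did not overlap. With every probe set tested by itself and no filter, this one was 2.50-fold lower in testosterone mice (log2 -1.32 ± 0.26, limma adjusted p = 0.0221), in a fit that called 7.06% of probe sets. With the filter its limma adjusted p was 0.00452, where 19.6% were called. The brighter probe set read 528, 482 and 592 in testosterone mice, against 524, 427 and 531 in vehicle mice. The dimmer probe sets of Per2 and Per3 had lower values in testosterone mice as well, by -0.90 and -0.63 and -0.28 on the log2 scale, and none was called. After withdrawal the dimmer Nr1d2 probe set read 8.23, 11.0 and 13.6 in testosterone mice, against 9.98, 12.1 and 8.57 in vehicle mice, which overlapped.

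After withdrawal, Nr1d1 alone among the 9 tested clock genes was called between testosterone and vehicle mice, where 6% of all tested genes were called. Testosterone mice had 27.5, 32.9 and 61.0, against 11.0, 13.9 and 5.26 in vehicle mice. The groups did not overlap. Nr1d1 was 4.09-fold higher in testosterone mice (log2 2.03 ± 0.43, 95% interval 1.11 to 2.95, limma adjusted p = 0.0103). The call was lost without the filter (limma adjusted p = 0.0945), with the actin ratio as a covariate (1.60, limma adjusted p = 0.0563), and when testosterone mouse 3 (1.69, limma adjusted p = 0.0609) or vehicle mouse 3 (1.62, limma adjusted p = 0.0539) was left out. On log2(signal + 16), without a floor, the change was 1.08 and remained called.

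The other REV-ERB gene, Nr1d2, had values of 147, 166 and 179 in testosterone mice after withdrawal, against 125, 133 and 143 in vehicle mice, which did not overlap. Together with Nr1d1 this made 2 of 9 genes without overlap, against 25.9% of all genes. The log2 difference of Nr1d2, 0.30, did not pass the test (limma adjusted p = 0.161). Per3 differed by -0.73 and did not pass (limma adjusted p = 0.122). Its groups overlapped, and 2 of 3 testosterone mice were under the floor. A dimmer Per3 probe set, near the floor in both groups, differed by 0.056. Nr1d1, Nr1d2 and Per3 made 3 of 9 genes with an unadjusted p under 0.05, where 20.6% of all genes had one. The median over the 9 genes was 0.097, against -0.038 over all genes. Among the others, Arntl, Clock, Cry1 and Cry2 had intervals of -0.48 to 0.58, -0.16 to 0.53, -0.68 to 0.72 and -0.13 to 0.55.

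Whether the testosterone effect itself differed between the times was tested as the difference of both effects. No clock gene was called in the limma fit, with 0 of 9 against 2.19% of all genes, and 2 of 9 had an unadjusted p under 0.05 against 21.9% of all genes. Nr1d1 had the largest difference, 1.86 ± 0.61 (limma adjusted p = 0.104), and Per3 was at -0.84 (limma adjusted p = 0.1997). The higher Nr1d1 signal of testosterone mice after withdrawal is therefore not shown to differ from the effect at the end of treatment, which was 0.17 ± 0.43. Testosterone withdrawal mouse 3 had the highest signal of its group for Nr1d1, Nr1d2, Per1 and Per3, and the lowest balance, 1.24.

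Beyond the 10 genes, 11 other clock genes on the array were read, of which 9 were tested, while Bhlhe41 and Timeless were under the filter. In testosterone mice 2 of the 9 were called higher and 3 lower after withdrawal, with a median of -0.19, where 5.57% of all tested genes were called higher and 5.31% lower. In vehicle mice 1 was called higher and 2 lower, with a median of 0.055, where 11% of all tested genes were called higher and 6.83% lower. Dbp, a transcription factor that binds D-boxes and is driven by CLOCK and ARNTL, had the largest change. It read 12.2, 12.1 and 47.0 in testosterone mice after withdrawal, against 721, 856 and 814 at the end. The vehicle mice had 7.53, 15.8 and 13.4 after withdrawal, against 795, 515 and 664 at the end. Testosterone withdrawal mouse 3 was again the highest of the withdrawal mice, and the only one in which Dbp exceeded the array median. Dbp thus passed the filter through its end arrays and had to be bright there to be tested. Dbp was 41.7-fold lower after withdrawal in testosterone mice (log2 -5.38 ± 0.40, limma adjusted p = 9.65e-07) and 55.4-fold lower in vehicle mice (-5.79 ± 0.40, limma adjusted p = 4.29e-07). Without testosterone withdrawal mouse 3 the log2 change in testosterone mice was -6.03. The Dbp calls in both treatments held in the fit without the filter.

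Tef, a D-box factor related to Dbp, ran the same way. It read 99.2, 131 and 146 in testosterone mice after withdrawal, against 420.0, 432 and 411 at the end, and 115, 143 and 122 in vehicle mice after withdrawal, against 435, 372 and 480.3 at the end. Tef was 3.40-fold lower in testosterone mice (log2 -1.77 ± 0.14, limma adjusted p = 1.62e-06) and 3.38-fold lower in vehicle mice (-1.76 ± 0.14, limma adjusted p = 1.84e-06). Nfil3, which represses through D-boxes and is high when Dbp is low, ran the other way. Its signal was 186, 174 and 168 in testosterone mice after withdrawal, against 31.9, 39.5 and 25.8 at the end. In vehicle mice Nfil3 read 122, 135 and 129 after withdrawal, against 26.6, 42.0 and 52.9 at the end. It was 5.50-fold higher after withdrawal in testosterone mice (log2 2.46 ± 0.21, limma adjusted p = 2.65e-06) and 3.31-fold higher in vehicle mice (1.72 ± 0.21, limma adjusted p = 0.000107).

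Between testosterone and vehicle mice, 0 of the 9 other clock genes were called at the end of treatment in the limma fit, with 0 at an unadjusted p under 0.05, where 17.4% of all tested genes were called and 32% had an unadjusted p under 0.05. After withdrawal 1 of the 9 was called, where 6% of all tested genes were. That gene was Bhlhe40, a repressor of E-box genes. It read 65.6, 109 and 146 in testosterone mice after withdrawal, against 226, 244 and 195 in vehicle mice, without overlap. At the end of treatment it read 220.2, 232 and 169.6 in testosterone mice, against 252, 252 and 252 in vehicle mice. Bhlhe40 was 2.17-fold lower in testosterone mice after withdrawal (log2 -1.12 ± 0.21, limma adjusted p = 0.00513) and 2.02-fold lower in testosterone mice after withdrawal than in testosterone mice at the end (-1.02 ± 0.21, limma adjusted p = 0.00741). Both calls were lost without the filter, at limma adjusted p = 0.0661 and limma adjusted p = 0.0659. Nfil3 was higher in testosterone mice after withdrawal by 0.45 and did not pass the test (limma adjusted p = 0.235).

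Genes known to cycle in liver under the clock were read from a second list of 11, of which 10 were tested and Por was not matched. After withdrawal 3 were called higher and 4 lower in testosterone mice, and 1 higher and 5 lower in vehicle mice, with medians of -0.67 and -0.92. Over all tested genes 5.57% were called higher and 5.31% lower in testosterone mice, and 11% and 6.83% in vehicle mice. Usp2, a deubiquitinating enzyme, read 15.3, 18.0 and 23.5 in testosterone mice after withdrawal, against 216, 196 and 151 at the end. In vehicle mice Usp2 read 28.8, 32.9 and 26.9 after withdrawal, against 255, 227 and 211 at the end. It was 9.95-fold lower after withdrawal in testosterone mice and 7.82-fold lower in vehicle mice (limma adjusted p = 3.97e-08 and limma adjusted p = 1.01e-07). The cell cycle kinase gene Wee1 was 4.96-fold lower in testosterone mice and 4.63-fold lower in vehicle mice. The cell cycle inhibitor gene Cdkn1a was higher, at least 3.85-fold in testosterone mice and 3.95-fold in vehicle mice. Elovl3 was called higher in testosterone mice, with means of 1253 after withdrawal and 267 at the end. In vehicle mice its means were 31.0 and 32.7. Lpin1 was called lower in testosterone mice, with means of 61.2 after withdrawal and 622 at the end, and of 104 and 271 in vehicle mice. Nampt was called lower in vehicle mice, with means of 157 after withdrawal and 401 at the end. Wee1 passed the filter through its end arrays and Cdkn1a through its withdrawal arrays, so each had to be bright at that time to be tested. The Wee1 calls and the Cdkn1a call in vehicle mice held without the filter.

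**Figure D4:**
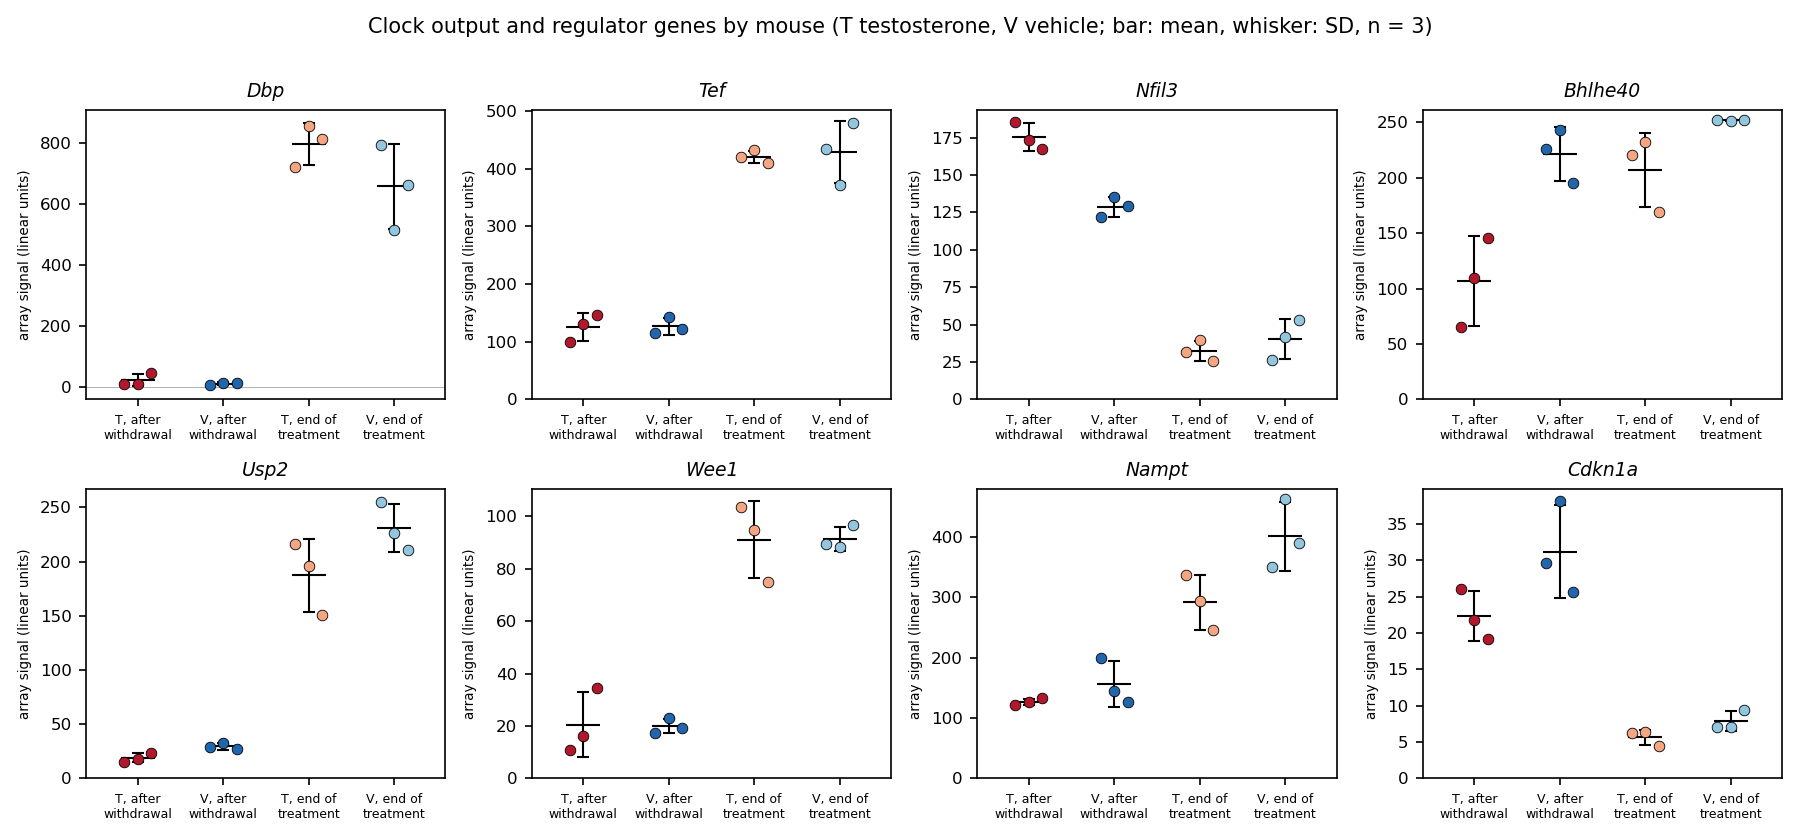
Signal of clock output genes in each of the 12 mice, 1 panel per gene, with array intensity on a linear axis and the groups in the order testosterone withdrawal, vehicle withdrawal, testosterone end, vehicle end; points are mice, bars are group means and whiskers are SDs of 3 mice. Dbp is between 7.53 and 47.0 in the 6 withdrawal mice and between 515 and 856 in the 6 end mice.

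Some of these output genes also differed between testosterone and vehicle mice. At the end of treatment 2 of the 10 were called higher and 1 lower, where 17.4% of all tested genes were called in either direction. Lpin1, a phosphatidate phosphatase of fat synthesis, read 932, 394 and 542 in testosterone mice, against 350.1, 193 and 271 in vehicle mice, and was 2.21-fold higher (limma adjusted p = 0.0105, but 0.0778 without the filter). Cyp7a1, which catalyses the first step from cholesterol to bile acids, was 2.89-fold lower in testosterone mice, and Elovl3, a fatty acid elongase, was 8.02-fold higher. With the actin ratio as a covariate, the Lpin1 change was 2.07 (limma adjusted p = 0.0790) and the Cyp7a1 change -1.12 (limma adjusted p = 0.287), and neither was called. After withdrawal 1 of the 10 was called higher and 1 lower, where 6% of all tested genes were called: Elovl3 was 39.6-fold higher and Usp2 1.58-fold lower in testosterone mice (log2 -0.66 ± 0.17, limma adjusted p = 0.0319). The Usp2 call was lost when any 1 of 5 of the 6 withdrawal mice was left out, all but testosterone mouse 3, and under 8 other alternative settings.

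Glucocorticoids rise and fall with the time of day, and a list of 10 genes they induce was read beside the clock. In testosterone mice 2 of 10 were called higher after withdrawal and 0 lower, and in vehicle mice 0 higher and 1 lower, where 10.9% and 17.8% of all tested genes were called in either direction. The medians were 0.16 in testosterone mice and -0.24 in vehicle mice. Igfbp1 was called in opposite directions, at log2 changes of 2.21 in testosterone mice and -2.59 in vehicle mice. G6pc was the other gene called in testosterone mice, at 1.24. None of these calls held without the filter or with the actin ratio as a covariate. Leaving out a mouse lost the testosterone calls in 3 fits for Igfbp1 and in 4 for G6pc. Between testosterone and vehicle mice after withdrawal, 2 of the 10 were called higher and 1 lower, where 6% of all tested genes were called. The list median was -0.18, against -0.038 over all genes. Igfbp1, which binds insulin-like growth factors, was 11.0-fold higher (limma adjusted p = 0.00224) and Dusp1, a phosphatase of stress kinases, was 3.04-fold higher (limma adjusted p = 0.0210). Neither was called without the filter (limma adjusted p = 0.0572 and limma adjusted p = 0.156). Testosterone withdrawal mouse 3 had the highest value of its group for both, 1915 for Igfbp1 and 875 for Dusp1. The log2 change of Igfbp1, 3.46 with all mice, was 2.59 without that mouse and 4.27 without testosterone withdrawal mouse 2, called both times. The Dusp1 change, 1.60 with all mice, was 1.12 without testosterone withdrawal mouse 3, 1.49 without vehicle withdrawal mouse 1 and 1.40 without vehicle withdrawal mouse 2, and was called in none of these fits. Nor was it called with the actin ratio as a covariate (limma adjusted p = 0.101) or without the variance trend (limma adjusted p = 0.0559). At the end of treatment 0 of the 10 were called higher and 1 lower, where 17.4% of all tested genes were called. The list median there was -0.23, against 0.044 over all genes. Mt2, a metallothionein, was 16.02-fold lower after withdrawal and 21.1-fold lower at the end of treatment in testosterone mice. The log2 change at the end, -4.40 with all mice, was -3.72 without vehicle end mouse 2 and -5.16 without vehicle end mouse 3, which read 1452 and 197.

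The genes whose signal was most like that of Arntl over the 12 mice were Ppp1r3c (Pearson r 0.971), Nedd4l (0.967), Clock (0.965), Clpx (0.964) and Insig2 (0.964). The most opposite were Tef (-0.980), Nr1d2 (-0.970), Dbp (-0.961), Usp2 (-0.956) and Idi1 (-0.952). These correlations follow the split between the times, which all 12 mice share. Within the 6 withdrawal mice the r with Arntl was 0.25 for Clock, -0.96 for Nedd4l and -0.62 for Tef, and within the 6 end mice it was 0.55, 0.89 and -0.54. Nr1d1 was most like Cyp2f2 (0.869), Rcl1 (0.861), Oxr1 (0.838), Bzw1 (0.834) and Tfg (0.829). Within the 6 withdrawal mice these were at 0.91 to 0.98, and within the 6 end mice at -0.11 to 0.79. The values describe likeness over 12 or 6 arrays and carry no test.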

How the data were processed

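Liver RNA of 12 mice was read on 1 array each. The authors deposited 1 linear intensity for each probe set, made with GCOS and MAS5 per the submitters' processing notes, versions not given. The values show that each array had been scaled, with a 2% trimmed mean of 100.05. The number of arrays limits the precision.

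Control probe sets were left out, signals under the 25th percentile (4.84) were set to it, and log2 was taken. Each gene with 1 symbol was read from its brightest probe set. Genes that exceeded the median signal of 3 or more arrays were fitted in limma 3.58.1 (R 4.3.3) with 4 group means and a variance trend. Benjamini-Hochberg adjustment covered all 7217 genes in each of 5 comparisons, and the script was tested on simulated data. A fold against a group with mice under the floor is a bound. Labels name individual mice as replicates. Mice with the same replicate number did not deviate together (18 pairs, correlations -0.194 to 0.00565), so the reported fit did not pair them. With 3 mice in a group this check cannot exclude a factor shared by mice of the same number. The members, the gene lists, the tests and the rule for named genes (all 10 members, up to 4 called genes per list and comparison by size, and Dbp, Tef and Nfil3) were chosen with earlier results of these data known. Alternatives changed the floor, the filter, the normalization, the probe set, the samples fitted, the variance trend and the actin ratio, and left out each mouse.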

Additional observations from a re-analysis of the deposited data

Results flagged for a closer look

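For 4 genes outside the core clock, the testosterone effect differed between withdrawal and the end of treatment by the test of that difference in the limma fit. The effect on Igfbp1 was 4.80 higher on the log2 scale after withdrawal than at the end (limma adjusted p = 0.0116), and 3.93 to 5.61 higher with 1 mouse left out, the lowest without testosterone withdrawal mouse 3 and the highest without testosterone withdrawal mouse 2. Its signal was 526, 186 and 1915 in testosterone mice and 39.0, 68.2 and 53.0 in vehicle mice after withdrawal, against 224, 98.4 and 85.5 in testosterone mice and 368, 211 and 393 in vehicle mice at the end. The effect on Elovl3 was 2.30 higher (limma adjusted p = 0.00875), with 889, 1670.2 and 1199 in testosterone mice and 24.4, 32.6 and 36.1 in vehicle mice after withdrawal, against 176, 289.9 and 335 in testosterone mice and 42.3, 27.1 and 28.9 in vehicle mice at the end. The effect on Cyp7a1 was 1.26 higher (limma adjusted p = 0.0362), and this call was lost when any 1 of 8 mice was left out, with differences of 1.02 to 1.37. The effect on Lpin1 differed by -1.93 (limma adjusted p = 0.0206), and the call was lost without vehicle withdrawal mouse 2 (-1.81), vehicle withdrawal mouse 3 (-2.01) or testosterone withdrawal mouse 2 (-1.90). None of these 4 calls held without the filter on dim genes or with the actin ratio as a covariate.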

How the results depend on the processing

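Among the genes called in a reported comparison, core clock or listed, 1102 alternative values kept direction and call, 94 lost the call and 0 turned direction. The count of clock genes called between testosterone and vehicle at the end of treatment became 1 with the mean of probe sets and 1 with every probe set tested, both for a lower Nr1d2. After withdrawal that count became 0 without the filter and 0 with the actin ratio as a covariate, and lay between 0 and 1 with a mouse left out. Leaving out each mouse gave 6 to 8 called clock genes between the times in testosterone mice, 7 to 9 in vehicle mice, and 0 for testosterone against vehicle at the end and for the difference of effects. With the actin ratio as a covariate these were 4 in testosterone mice and 5 in vehicle mice. That ratio was higher in every testosterone end mouse than in all others, which limits what this covariate can show. The balance of Arntl against Nr1d1 alone differed by -1.98 between testosterone and vehicle after withdrawal and by 2.21 between the times in testosterone mice, and the mean of probe sets gave 3.17 for the second, against 3.80. The cause of these changes was not tested.

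With the replicate number as a block, clock genes called were 8 (testosterone) and 9 (vehicle) between the times, 1 and 0 for testosterone against vehicle after withdrawal and at the end, and 0 for the difference of effects, as in the reported fit. Over all genes the block moved the calls of that last comparison to 55, against 158. Counts of all calls moved by over 1.5 times in some settings, of which 2 tested other numbers of features than 7217 genes. Without the filter 12393 genes were tested. Calls there were 490 (3.95%) against 785 (10.9%) for testosterone between the times. They were 37 (0.299%) against 158 (2.19%) for the difference of effects. For vehicle between the times they were 792 (6.39%) against 1288 (17.8%), and after withdrawal 286 (2.31%) against 433 (6%). With every probe set, 11136 probe sets were tested. Calls there were 2185 (19.6%) against 1258 (17.4%) at the end. They were 1186 (10.7%) for testosterone between the times and 554 (4.97%) for the difference. With the actin ratio they were 110 for testosterone and 232 for vehicle between the times. Testosterone against vehicle had 263 after withdrawal and 78 at the end, and the difference had 1. Without the variance trend the difference had 72. The fit on only the compared groups has no value for the difference of effects.

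Nr1d2 at the end turned from higher to lower, and was called, with the mean of probe sets and with every probe set. All values that changed sign were of genes not called in the reported fit. For testosterone against vehicle at the end these were, on the log2 scale, Nr1d2 (-0.60), Per2 (-0.42) and Per3 (-0.27) with the mean of probe sets, Nr1d2 (-1.32) with every probe set, Dbp (-0.17) without shared probe sets, Tef (0.010) with median centring, and Clock (-0.46), Per2 (-0.83) and Tef (0.41) with the actin ratio. After withdrawal they were Per1 (-0.31) with the lower floor, Tef with quantile normalization (0.0013) and median centring (0.057), and Arntl (-0.026) and Per1 (-0.11) with the actin ratio. For the difference of effects they were Tef with quantile normalization (0.028), median centring (0.047), the mean of probe sets (0.46) and every probe set (1.55), Per2 (0.33) and Per3 (0.043) with the mean of probe sets, and Nr1d1 (-0.11), Nr1d2 (-0.085), Per2 (0.72), Cry2 (-0.011) and Dbp (-0.60) with the actin ratio. Between the times in testosterone mice it was Nr1d1 (-0.87) with the actin ratio. With a mouse left out, ranges crossed 0 at the end for Nr1d1 (-0.23 to 0.54), Per2 (-0.041 to 0.17), Per3 (-0.018 to 0.26), Cry1 (-0.52 to 0.18), Cry2 (-0.12 to 0.097) and Tef (-0.12 to 0.066). After withdrawal they did for Arntl (-0.091 to 0.25), Per1 (-0.51 to 0.40), Per2 (-0.69 to 0.11), Cry1 (-0.14 to 0.20) and Tef (-0.15 to 0.13). For the difference of effects they did for Arntl (-0.41 to 0.043), Clock (-0.12 to 0.17), Per1 (-0.87 to 0.042), Per2 (-0.75 to 0.045), Cry1 (-0.16 to 0.54), Dbp (-0.24 to 0.74) and Tef (-0.13 to 0.15). Signals near the floor limit Npas2, Per1 and Per3 after withdrawal.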
